A study of Mus musculus with 31 samples.

Results

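The PTHrP and calcium-sensing axis was described here through 5 genes taken by symbol from the 55379 genes counted in mouse mammary gland. They were Pthlh, which encodes parathyroid hormone-related protein (PTHrP), Pth1r, its receptor, Casr, the calcium-sensing receptor, Vdr, the vitamin D receptor, and Gli2, a transcription factor of hedgehog signalling. Of these 5, Pthlh, Pth1r and Vdr had enough counts for a test, and Casr and Gli2 did not. Another 98 genes of the axis were read from the same fit, so that 103 were examined in all, of which 72 had enough counts.

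Glands were collected on lactation day 10 from 31 C57BL/6J dams, bred from 6 weeks of age, each sequenced as 1 library. From 2 weeks before mating, dams ate a breeder diet with 4 mg/kg folic acid (FA) or the same base diet enriched to 24 mg/kg. Fluoxetine, a selective serotonin reuptake inhibitor, was injected daily at 20 mg/kg from embryonic day 13 until collection, and controls received saline. By the labels, the breeder diet + saline group held 8 dams, breeder diet + fluoxetine held 7, and FA diet + saline and FA diet + fluoxetine held 8 each. The methods of the study give 8 and 7 for the fluoxetine groups in that order, and the labels were followed. All dams were lactating, and no non-lactating gland was analysed here.

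During lactation the mammary epithelium makes PTHrP and releases it into the circulation, where it acts on bone through PTH1R to free calcium for milk. Epithelial CASR senses extracellular calcium and is known to restrain PTHrP production and to promote calcium transport into milk, and serotonin made in the gland is known to raise PTHrP. In the embryonic gland, by contrast, PTHrP from the epithelium signals to PTH1R on the surrounding mesenchyme. VDR, with its partner RXR, mediates transcription in response to calcitriol, and GLI2 carries hedgehog signals that pass mainly from epithelium to stroma.

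On GRCm39, Pthlh (ENSMUSG00000048776) lies at chr6:147153599-147165681, Pth1r (ENSMUSG00000032492) at chr9:110550767-110576259, Casr (ENSMUSG00000051980) at chr16:36310949-36382503, Vdr (ENSMUSG00000022479) at chr15:97752306-97808511 and Gli2 (ENSMUSG00000048402) at chr1:118761858-118982598, all on the minus strand. Pth1r shares 95 bases of exon with Myl3 on the opposite strand, and the strand option of the counting is not given in the sources used here. Myl3, a muscle myosin light chain, had 375 counts in all, in 5 libraries.

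Folic acid is a methyl donor, and DNA methylation acts at CpG sites, so the CpG content of the promoters was read from RefSeq promoter windows covering 250 bases before to 50 bases after each start. All 5 genes matched, Pth1r with 3 windows, and every window had 1 exact match in GRCm39. The 2 windows with the most and the fewest CpG sites among these genes are printed, with each CG pair in capitals, at chr6:147165462-147165761 for Pthlh and chr16:36382447-36382746 for Casr, both 5′ to 3′ on the minus strand.
Pthlh: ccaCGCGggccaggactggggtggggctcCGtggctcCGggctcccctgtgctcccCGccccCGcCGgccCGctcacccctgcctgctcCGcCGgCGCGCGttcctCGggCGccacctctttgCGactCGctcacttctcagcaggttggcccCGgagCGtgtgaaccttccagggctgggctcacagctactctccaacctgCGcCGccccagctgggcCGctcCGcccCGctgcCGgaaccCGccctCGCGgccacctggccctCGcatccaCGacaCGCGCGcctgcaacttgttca
Casr: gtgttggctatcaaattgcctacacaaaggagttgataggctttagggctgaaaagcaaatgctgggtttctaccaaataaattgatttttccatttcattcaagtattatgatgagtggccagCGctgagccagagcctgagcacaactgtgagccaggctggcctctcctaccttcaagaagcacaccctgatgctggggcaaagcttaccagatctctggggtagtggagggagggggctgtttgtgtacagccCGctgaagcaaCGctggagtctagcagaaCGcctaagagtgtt
The Pthlh window held 33 CpG sites, and 91.4% of 32851 mouse promoter windows of this length held fewer. The Casr window held 4, with fewer in 31.4% of windows, and the median of all windows was 7. Gli2 had 28 sites, Vdr 15, and the Pth1r windows 5, 23 and 27. On either strand, none of the windows held the cyclic AMP response element TGACGTCA, which 1.79% of all windows hold, or the GLI site GACCACCCA, which 0.253% hold. The SP1 box GGGCGG, which 35.7% hold, was in every window except that of Casr and the Pth1r window with 5 sites. Methylation was not measured in these libraries.

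Total counts ran from 15412542 to 36000439 per library, and the 20 most abundant genes took a median of 77.1% of them. One library stood apart, replicate 3 of FA diet + fluoxetine, in which these genes took 39.3%. Its summed level of 7 secretory luminal markers (the caseins, Wap, Lalba and Glycam1) was 55199 CPM (read counts relative to the library size, scaled by edgeR's TMM method) against a median of 672464 in the other 30. Its 12 stromal fibroblast markers, led by collagens, summed to 1160 CPM against a median of 156.9, a 7.39-fold difference, its 8 adipocyte markers to 2.38-fold the median of the others and its 7 immune markers to 3.23-fold. Luminal epithelial markers, such as Epcam and Krt8, summed to 0.570-fold. In the other 30 libraries the milk protein markers summed to at least 297776 CPM, so the markers of lactating gland were present. Those 30 were not uniform. In replicate 13 of breeder diet + fluoxetine the 20 most abundant genes took 60.5%, the next lowest share. Results of the testable members and of some axis genes are given with and without replicate 3 of FA diet + fluoxetine. In bulk tissue, fewer cells of a type and less RNA per cell cannot be told apart.

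Compared per length of exon, Vdr and Pthlh were abundant messages of the lactating gland, Pth1r was low, and Gli2 and Casr were close to the limit of detection. Vdr averaged 20.1 ± 4.88 CPM per kilobase (SD, n = 31), above 96.7% of 14326 genes ranked. Pthlh averaged 13.2 ± 4.91 CPM per kilobase, above 95% of them. Vdr exceeded Pthlh in 25 of 31 libraries, although their means lay within the sum of both SDs. Pth1r averaged 0.291 ± 0.334 CPM per kilobase, above 23.7% of genes, and Pthlh exceeded it in 30 of 31 libraries. Gli2 averaged 0.017 ± 0.018 and Casr 0.0066 ± 0.014 CPM per kilobase. These last levels did not differ beyond their spread. Gli2 was above Casr in 16 of 31 libraries. The other libraries include ties in which neither gene had a count, so Casr was not above Gli2 in all of them.

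**Figure D1:**
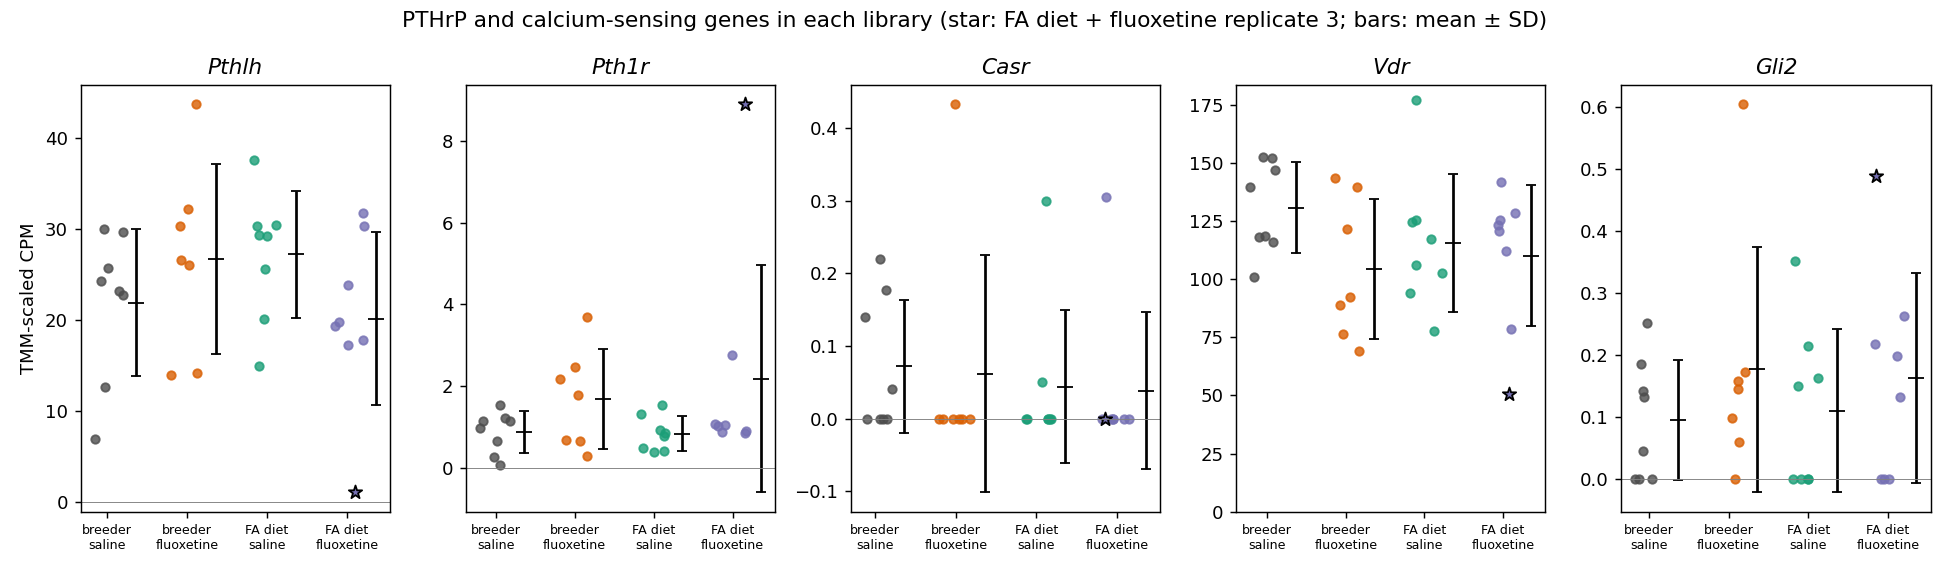
CPM (TMM-scaled, linear axes) of the 5 genes in each of 31 libraries by group, 1 point per dam, with the mean ± SD of each group beside it and replicate 3 of FA diet + fluoxetine as a star. On this scale that dam is lowest for Pthlh (1.08 CPM) and Vdr (50.5 CPM) and highest for Pth1r (8.89 CPM), and Casr is at 0 in 23 libraries.

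Pthlh, the ligand, was detected in every dam, and no difference with either treatment passed the test. In breeder diet + saline it ran from 6.98 to 30.02 CPM with a median of 23.7, and in breeder diet + fluoxetine from 14.0 to 43.7 with a median of 26.6. On the FA diet the range was 14.99 to 37.6 CPM around 29.3 with saline. With fluoxetine it was 1.08 to 31.8 CPM around 19.6. All groups overlapped, and no more than 3 dams of any group lay above every dam of the group it was compared with. The low value belonged to the dam that stood apart, which had 62 counts of Pthlh, while the next dam of its group was at 17.3 CPM. Group means were 21.9 ± 8.07 (SD, n = 8), 26.7 ± 10.4 (SD, n = 7), 27.2 ± 6.95 (SD, n = 8) and 20.2 ± 9.49 (SD, n = 8), the last 22.9 ± 5.98 (n = 7) without that dam.

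The log2 fold change of Pthlh for fluoxetine, averaged over both diets, was -0.074 (SE 0.260, adjusted p = 0.952 by edgeR's quasi-likelihood test). It was 0.0085 (SE 0.179) without replicate 3 of FA diet + fluoxetine, so even its sign rested on 1 dam. For FA it was -0.049 (SE 0.260, adjusted p = 0.998 by the same test). Fluoxetine dams averaged more Pthlh on the breeder diet and less on the FA diet, and the interaction was -0.72 (SE 0.519, adjusted p = 0.977), or -0.55 without that dam. None of the 3 contrasts passed the study's false discovery rate (FDR) of 10%. The other ligands of the family, Pth, the circulating parathyroid hormone, and Pth2 had no count in any library.

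Pth1r, the receptor, had the largest fluoxetine difference of the 3 testable members, but it did not pass the adjustment over all genes. It ran from 0.066 to 1.54 CPM with a median of 1.06 in breeder diet + saline and from 0.296 to 3.69 with a median of 1.78 in breeder diet + fluoxetine. The FA diet gave 0.390 to 1.55 CPM around 0.812 with saline and 0.863 to 8.89 around 1.04 with fluoxetine. Counts behind these values were small, 1 to 79 per library apart from 509 in replicate 3 of FA diet + fluoxetine. That dam was at 8.89 CPM, and the next highest of its group at 2.77.

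All 8 fluoxetine dams of the FA diet lay above the median of FA diet + saline, and 2 lay above all of its dams. On the breeder diet 4 of 7 fluoxetine dams exceeded every saline dam, and the other 3 were below the saline median. The groups therefore overlapped on both diets. On the breeder diet the mean was 0.883 ± 0.505 CPM with saline (SD, n = 8) and 1.68 ± 1.22 with fluoxetine (SD, n = 7). On the FA diet it was 0.839 ± 0.423 CPM with saline and 2.19 ± 2.78 with fluoxetine (SD, n = 8 each). Without replicate 3 the last was 1.23 ± 0.684 (n = 7).

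The log2 fold change of Pth1r for fluoxetine was 1.15 (SE 0.380, unadjusted p = 0.00458, adjusted p = 0.358 by edgeR's quasi-likelihood test). Without replicate 3 of FA diet + fluoxetine it was 0.72 (SE 0.321, unadjusted p = 0.0316, adjusted p = 0.502 by the same test). An unadjusted p of 0.05 or below was reached by 9.94% of all genes tested in this contrast, and by 9.21% without that dam. Reaching 0.05 was therefore common, but the 0.00458 with all dams lies well below that threshold. The share of genes at or below 0.00458 was not counted. At an FDR of 10% the contrast called 0 of 3 members, where it called 0.0209% of all genes. The likelihood ratio test of edgeR and DESeq2 also left Pth1r above the threshold (adjusted p = 0.232 and 0.207). For FA the log2 fold change was 0.17 (SE 0.379) and turned to -0.26 without that dam, and the interaction of 0.46 (SE 0.758) turned to -0.39. FA and the interaction each called 0 members and 0% of all genes at the FDR, and at an unadjusted p of 0.05 they reached 0 of 3 members against 5.07% and 3.84% of all genes.

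Among the receptor's partners, Nherf1, a scaffold that binds PTH1R, averaged 90.4 ± 19.0 CPM (SD, n = 16) in saline and 73.4 ± 19.9 (SD, n = 15) in fluoxetine dams. Its log2 fold change was -0.30 (SE 0.136, unadjusted p = 0.0350, adjusted p = 0.477 by the quasi-likelihood test), and -0.25 without replicate 3 of FA diet + fluoxetine. Arrb1, a beta-arrestin that desensitises the receptor, had an interaction of 0.60 (unadjusted p = 0.0275), which was 0.38 (unadjusted p = 0.098, adjusted p = 0.997 by that test) without this dam. Pth2r, a related receptor, had 9 counts in all.

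Casr could not be compared between groups at this depth. It had 38 counts in all, in 8 of 31 libraries, and 23 libraries had none. In a library, 3 counts correspond to 0.052 to 0.243 CPM. On the breeder diet, 4 of 8 saline dams held 14 counts and 1 of 7 fluoxetine dams held 11. On the FA diet, 2 of 8 saline dams held 6 counts and 1 of 8 fluoxetine dams held 7. The highest values were 0.432 CPM in replicate 5 of breeder diet + fluoxetine, 0.306 in replicate 10 of FA diet + fluoxetine and 0.300 in replicate 10 of FA diet + saline. Saline dams averaged 0.058 ± 0.096 CPM (SD, n = 16) and fluoxetine dams 0.049 ± 0.132 (SD, n = 15). With no filter on low counts, the log2 fold change for fluoxetine was -0.19 (SE 0.950, unadjusted p = 0.845 by the quasi-likelihood test).

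Casr counts were set beside skeletal muscle markers, such as Acta1 and Ckm. The 5 libraries with the highest sum of 8 such markers, 1895 to 6271 CPM, held 29 of the 38 Casr counts, and the next 3, at 1859, 935 and 603 CPM, held none. In the remaining 3 with counts the sum was 248 to 542 CPM, and the median of all libraries was 248. Whether these counts came from tissue attached to the gland was not tested. Of the other genes of calcium sensing, Gprc6a, a further receptor, and Gcm2, a parathyroid transcription factor, had no count. Ap2s1, an adaptor subunit that controls CASR uptake from the membrane, averaged 57.4 ± 13.2 CPM (SD, n = 16) in saline and 67.8 ± 15.7 (SD, n = 15) in fluoxetine dams, a log2 fold change of 0.24 (SE 0.117, unadjusted p = 0.0448, adjusted p = 0.496 by the quasi-likelihood test).

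G proteins that carry signals of both receptors were well expressed. Gnas, the stimulatory alpha subunit, averaged 7.66 ± 1.18 CPM per kilobase (SD, n = 31), Gna11 5.34 ± 0.806 and Gnaq 2.50 ± 0.366. Their log2 fold changes for fluoxetine were -0.15, -0.12 and 0.017, and no unadjusted p of 0.05 or below was found for the 8 G protein genes in any contrast. Of 14 genes of cyclic AMP signalling, Adcy7, an adenylyl cyclase, was 3.07 ± 0.941 CPM (SD, n = 16) in saline and 2.17 ± 0.562 (SD, n = 15) in fluoxetine dams. This was a log2 fold change of -0.49 (SE 0.160, unadjusted p = 0.00399, adjusted p = 0.347 by the quasi-likelihood test), the lowest adjusted p of the 72 axis genes in this contrast, and -0.50 without replicate 3 of FA diet + fluoxetine.

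Vdr was high in every dam, and no difference between the groups passed the test. It ran from 101 to 152 CPM with a median of 129 in breeder diet + saline and, with fluoxetine, from 69.0 to 143 with a median of 92.2. On the FA diet it ran from 77.8 to 177 CPM around 112 with saline and from 50.5 to 142 around 122 with fluoxetine. On the breeder diet 4 of 7 fluoxetine dams lay below every saline dam, while on the FA diet 6 of 8 lay above the saline median, so the groups overlapped. The log2 fold change for fluoxetine was -0.20 (SE 0.132, adjusted p = 0.630 by the quasi-likelihood test), that for FA -0.050 (SE 0.132) and the interaction 0.25 (SE 0.264). Without replicate 3 of FA diet + fluoxetine, the lowest Vdr library after TMM scaling, these were -0.15, -0.0014 and 0.35. That dam held 2891 counts of Vdr, within the range of 1297 to 4963 over all libraries. Its TMM factor, which divides its CPM, was 3.03, where the other libraries ran from 0.716 to 1.57.

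Rxra, the partner of VDR, averaged 4.07 ± 0.583 CPM per kilobase (SD, n = 31), with a log2 fold change of -0.061 for fluoxetine (SE 0.085). The enzymes that set the local hormone level were scarce. Cyp27b1, which makes calcitriol, had 165 counts in 26 libraries, and Cyp24a1, which degrades it, 70 counts in 9, and neither had enough for a test. Targets of VDR in intestinal calcium uptake were rare as well. Calb1 had no count, Trpv5 1 and S100g 48 in 8 libraries, while the channel gene Trpv6 passed with 233 counts and averaged 0.229 ± 0.200 CPM (SD, n = 16) in saline and 0.395 ± 0.263 (SD, n = 15) in fluoxetine dams (log2 fold change 0.75, SE 0.451, adjusted p = 0.583 by the quasi-likelihood test). The carrier and uptake genes Gc, Lrp2 and Cubn had 1, 9 and 57 counts.

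Gli2 had 105 counts in all, in 20 of 31 libraries, and 28 of them were in replicate 3 of FA diet + fluoxetine. On the breeder diet, 5 of 8 saline dams held 16 counts and 6 of 7 fluoxetine dams held 23. On the FA diet, 4 of 8 saline dams held 19 counts and 5 of 8 fluoxetine dams held 47. The highest level was 0.604 CPM, from 9 counts in replicate 9 of breeder diet + fluoxetine, followed by 0.489 CPM in the dam with 28 counts. Every group reached down to 0, so no order of the groups can be read. With no filter the log2 fold change for fluoxetine was 0.67 (SE 0.726, adjusted p = 0.938 by the quasi-likelihood test), a value fitted only with the dam that held 28 counts.

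Hedgehog ligands and the other GLI factors were as scarce. Shh had no count, Ihh 38 counts in 13 libraries and Dhh 63 in 15. Gli1, a transcriptional target of the pathway, had 84 counts in 17 libraries, and Gli3, mainly a repressor, 255 in 29, both below the filter, as was the antagonist Hhip with 22. Ptch1, the hedgehog receptor and also a target, averaged 0.208 ± 0.058 CPM per kilobase (SD, n = 31), with a log2 fold change of -0.078 (SE 0.157) for fluoxetine. Sufu, which restrains GLI proteins, had an interaction of 0.82 (SE 0.385, unadjusted p = 0.0395, adjusted p = 0.977 by the quasi-likelihood test) and 0.58 (unadjusted p = 0.110) without replicate 3 of FA diet + fluoxetine, whose 8.91 CPM were the highest of all libraries.

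**Figure D2:**
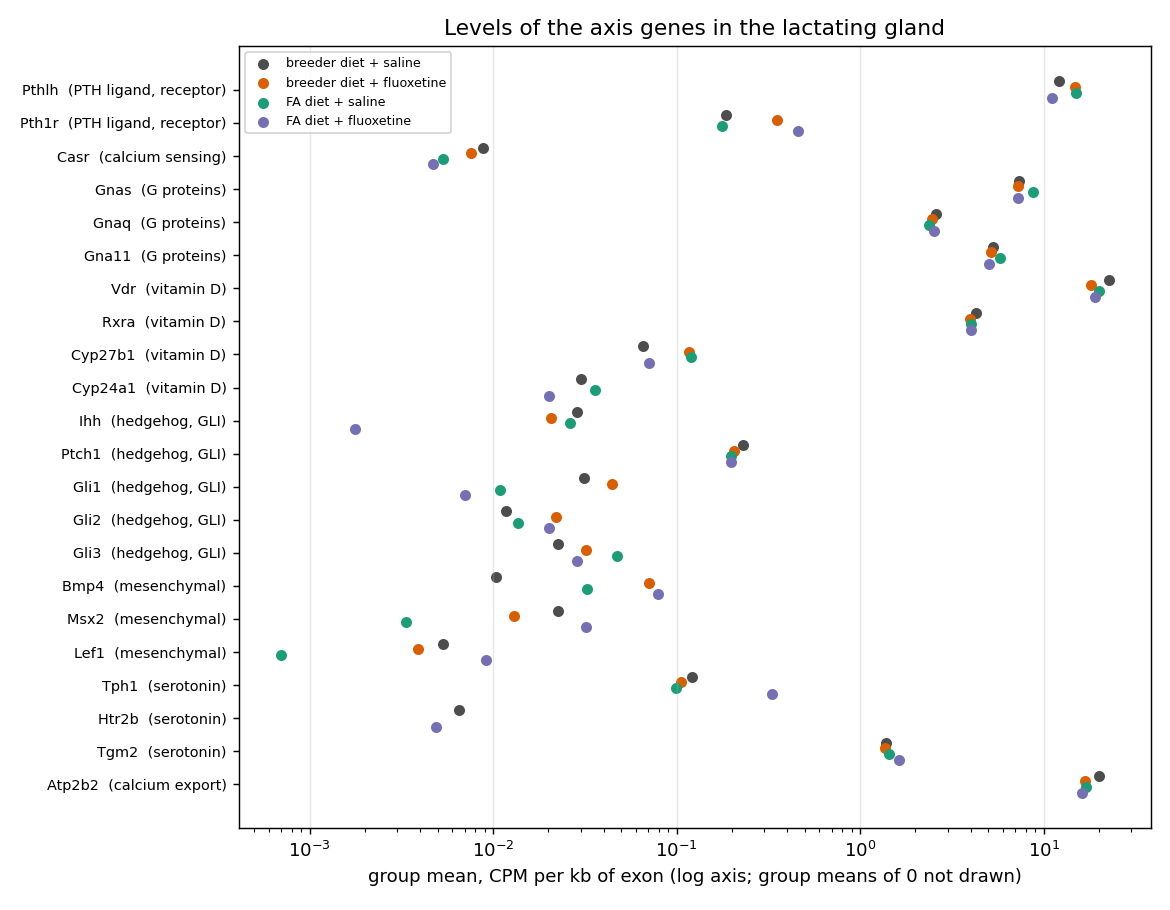
Group means in CPM per kilobase of exon (log axis) of the members and of the axis genes closest to them by role, 1 point per group of 7 or 8 dams. Pthlh, Vdr and the calcium pump gene Atp2b2 lie above 10, the G proteins between 2 and 9, and Casr, Gli2 and Lef1 below 0.03.

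Several mesenchymal genes that PTHrP is known to act on in the embryonic bud were rare. Bmp4, a growth factor, had 220 counts in 23 libraries, Msx2, a homeobox gene, 67 in 11 and Lef1, a Wnt effector, 53 in 7, all below the filter. Of 5 testable genes of this list, Tnc, an extracellular matrix glycoprotein, averaged 43.1 ± 11.3 CPM (SD, n = 16) in saline and 34.5 ± 10.6 (SD, n = 15) in fluoxetine dams. Its log2 fold change was -0.32 (SE 0.146, unadjusted p = 0.0351, adjusted p = 0.477 by the quasi-likelihood test), and -0.28 without replicate 3 of FA diet + fluoxetine, whose 18.4 CPM were the lowest of all libraries after TMM scaling.

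Inputs that regulate Pthlh were examined next. Of 8 TGF-beta genes, the ligand Tgfb2 had a log2 fold change of 0.58 for fluoxetine (SE 0.274, unadjusted p = 0.0421) and the signal transducer Smad4 of -0.28 (SE 0.112, unadjusted p = 0.0153). Their adjusted p-values were 0.490 and 0.416 by the quasi-likelihood test. Without replicate 3 of FA diet + fluoxetine, Tgfb2 was at 0.54 (unadjusted p = 0.068).

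Of 6 genes of serotonin synthesis, uptake and response, Tph1, the rate-limiting enzyme of serotonin synthesis, and Tgm2, a transglutaminase that attaches serotonin to proteins, had enough counts. Tph1 stood at 12.5 CPM in replicate 3 of FA diet + fluoxetine, where no other library exceeded 1.65. Its interaction was 1.94 (SE 0.909, unadjusted p = 0.0405, adjusted p = 0.977 by the quasi-likelihood test) with this dam and 0.059 (SE 0.621) without it. Tgm2 averaged 6.78 ± 1.45 CPM (SD, n = 16) in saline and 7.20 ± 5.48 (SD, n = 15) in fluoxetine dams, a log2 fold change of 0.077 (SE 0.222). The same dam was at 25.4 CPM of Tgm2, where no other library exceeded 11.2, and without it the log2 fold change was -0.22 (SE 0.153). Htr2b, a serotonin receptor, had 4 counts, Htr7 17, Slc6a4, the transporter that fluoxetine blocks, 30 in 4 libraries, and Ddc, the decarboxylase, 8.

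All 9 listed genes of calcium entry, storage and export in the gland were testable, Orai1 and Stim1 among them. Levels ran from 0.266 CPM per kilobase for Atp2b4, a pump of the plasma membrane, to 74.2 for Atp2c2, a pump of the secretory pathway. Atp2b2, the pump of the apical membrane, averaged 17.5 ± 5.22 CPM per kilobase (SD, n = 31), and its log2 fold changes were -0.16 (SE 0.209) for fluoxetine and -0.14 for FA. In replicate 3 of FA diet + fluoxetine it was at 19.7 CPM, against a median of 285 over all libraries, and without that dam the values were -0.084 (SE 0.123) and -0.058. Atp2a2, the pump of the endoplasmic reticulum, averaged 37.9 ± 8.58 CPM (SD, n = 16) in saline and 30.9 ± 6.12 (SD, n = 15) in fluoxetine dams. This was a log2 fold change of -0.29 (SE 0.106, unadjusted p = 0.0100, adjusted p = 0.406 by the quasi-likelihood test), and it was -0.29 without that dam too. Among bone resorption signals, Tnfrsf11b, the decoy receptor osteoprotegerin, was 0.684 ± 0.401 CPM (SD, n = 16) in saline and 0.337 ± 0.261 (SD, n = 15) in fluoxetine dams (log2 fold change -0.99, SE 0.446, unadjusted p = 0.0334, adjusted p = 0.475 by the quasi-likelihood test). Its partner Tnfsf11, the ligand RANKL, had 2 counts, Calca 29 and Calcr 3.

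Over the 72 testable axis genes, an unadjusted p of 0.05 or below for fluoxetine was reached by 9, which is 12.5% against 9.94% of all genes. Of these, 3 were higher and 6 lower, where 6.96% and 2.98% of all genes were. The higher ones were Pth1r, Ap2s1 and Tgfb2, and the lower ones Nherf1, Adcy7, Tnc, Smad4, Atp2a2 and Tnfrsf11b. The median log2 fold change was -0.033 against 0.019 over all genes tested. For FA none did, against 5.07% of all genes, and for the interaction 5 did, 6.94% against 3.84%, all of them higher, where 2.65% of all genes were. These were Arrb1, Sufu, Tph1 and the adenylyl cyclases Adcy5 and Adcy6, and in each of them replicate 3 of FA diet + fluoxetine was the highest of 31 libraries. Without that dam none of these 5 remained at that p, and 2 others, the hedgehog transducer Smo (-1.19) and its co-receptor Boc (-0.60), reached it with the opposite sign. These 2 were 2.78% of the 72 axis genes, below the 3.48% of all genes tested without that dam. For fluoxetine 11 axis genes reached an unadjusted p of 0.05 without that dam, 2 higher and 9 lower, 15.3% against 9.21% of all genes. Of all 14247 genes tested without that dam, 743 were higher and 569 lower at that p. Tgfb2 was no longer among the 11 axis genes, and Smo, Msx1 and Atp2b1 were added on the lower side. Without that dam the log2 fold change of Smo turned from 0.27 to -0.50 and that of Msx1 from 0.23 to -1.06. No axis gene passed an FDR of 10% in any contrast.

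**Figure D3:**
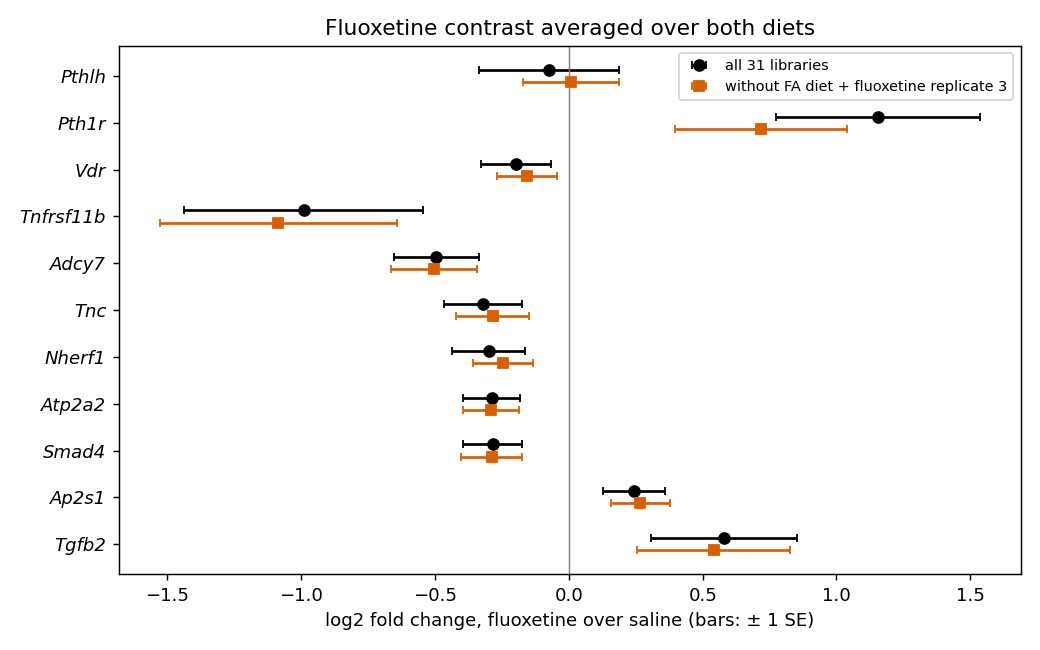
Log2 fold change for fluoxetine over saline, averaged over both diets, ± 1 SE, of the 3 testable members and the other axis genes at an unadjusted p up to 0.05, with all 31 libraries (black) and without replicate 3 of FA diet + fluoxetine (orange). Pth1r falls from 1.15 to 0.72 without that dam, and Pthlh stays beside 0.

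Pth1r is known from mesenchymal cells, so its level was set against the summed CPM of 12 stromal fibroblast markers. In replicate 3 of FA diet + fluoxetine both were the highest of all libraries, 8.89 CPM of Pth1r and 1160 CPM of stromal markers. Per 1000 CPM of stromal markers this dam held 7.66 CPM of Pth1r, close to the median of 7.17 over the other 30. Over all 31 libraries Pearson's r between the log2 values was 0.41 (permutation test, two-sided, 100000 resamples, p = 0.0300, adjusted p = 0.102 over 45 relations) and Spearman's rho 0.20 (permutation p = 0.279, adjusted p = 0.628). Without this dam r was 0.057 and rho 0.12, and without the 2 libraries farthest from the median stromal sum r was -0.088. The relation over all dams thus rested on 1 library.

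Within groups the relation of Pth1r to stromal markers was uneven. In breeder diet + fluoxetine r was 0.90 (n = 7, exact permutation p = 0.0062, adjusted p = 0.0953 over 31 values), in breeder diet + saline -0.38 (n = 8, exact permutation p = 0.372) and in FA diet + saline -0.18 (n = 8, exact permutation p = 0.678). In FA diet + fluoxetine it was 0.91 (n = 8, exact permutation p = 0.0271) and 0.40 (n = 7, exact permutation p = 0.434) without replicate 3. With group means subtracted, r was 0.53 over 31 libraries and 0.26 over 30. The ratio of Pth1r to stromal markers had a median of 6.62 CPM per 1000 with saline and 8.20 with fluoxetine on the breeder diet. On the FA diet these medians were 3.84 and 8.96, and the ranges overlapped on both diets. With the stromal sum as a covariate, a fit chosen after seeing the data, the log2 fold change of Pth1r for fluoxetine was 0.99 (SE 0.300, adjusted p = 0.131 by the quasi-likelihood test), and 0.95 (SE 0.335, adjusted p = 0.381) without that dam.

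Pth1r was related to adipocyte markers with and without that dam. Its r with the sum of 8 adipocyte genes, such as Adipoq and Plin1, was 0.66 (permutation adjusted p = 6.75e-04) and rho 0.61 over 31 libraries, and r was 0.56 (adjusted p = 0.0210) and rho 0.57 without replicate 3 of FA diet + fluoxetine. Without the 2 libraries farthest from the median r was 0.50 (adjusted p = 0.0769), so the call, though not the direction, rested on them. Within groups r was positive in all 4, from 0.38 in breeder diet + saline to 0.89 in breeder diet + fluoxetine, and 0.58 in FA diet + fluoxetine without that dam. With group means subtracted it was 0.68, and 0.60 without that dam. Adding the adipocyte sum as a covariate, likewise chosen after seeing the data, gave a log2 fold change of Pth1r for fluoxetine of 0.69 (SE 0.288, adjusted p = 0.541 by the quasi-likelihood test). This value includes replicate 3 of FA diet + fluoxetine, and the one without that dam is not given here. The adipocyte sums of the groups overlapped, with medians from 387 to 467 CPM. The part of adipocyte content in the level of Pth1r was not tested further.

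Pthlh followed luminal epithelial markers, the cells known to make it. Its r with 8 such genes was 0.81 (permutation adjusted p = 4.5e-04) and rho 0.74, and r was 0.62 (adjusted p = 0.0085) and rho 0.71 without replicate 3 of FA diet + fluoxetine. Without the 2 libraries farthest from the median it was 0.62 (adjusted p = 0.0121). Within groups it was positive in all 4, from 0.23 in breeder diet + saline to 0.92 in FA diet + fluoxetine. Its r of 0.77 with secretory luminal markers fell to 0.11 without that dam, and the r of -0.55 with stromal markers turned to 0.11.

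**Figure D4:**
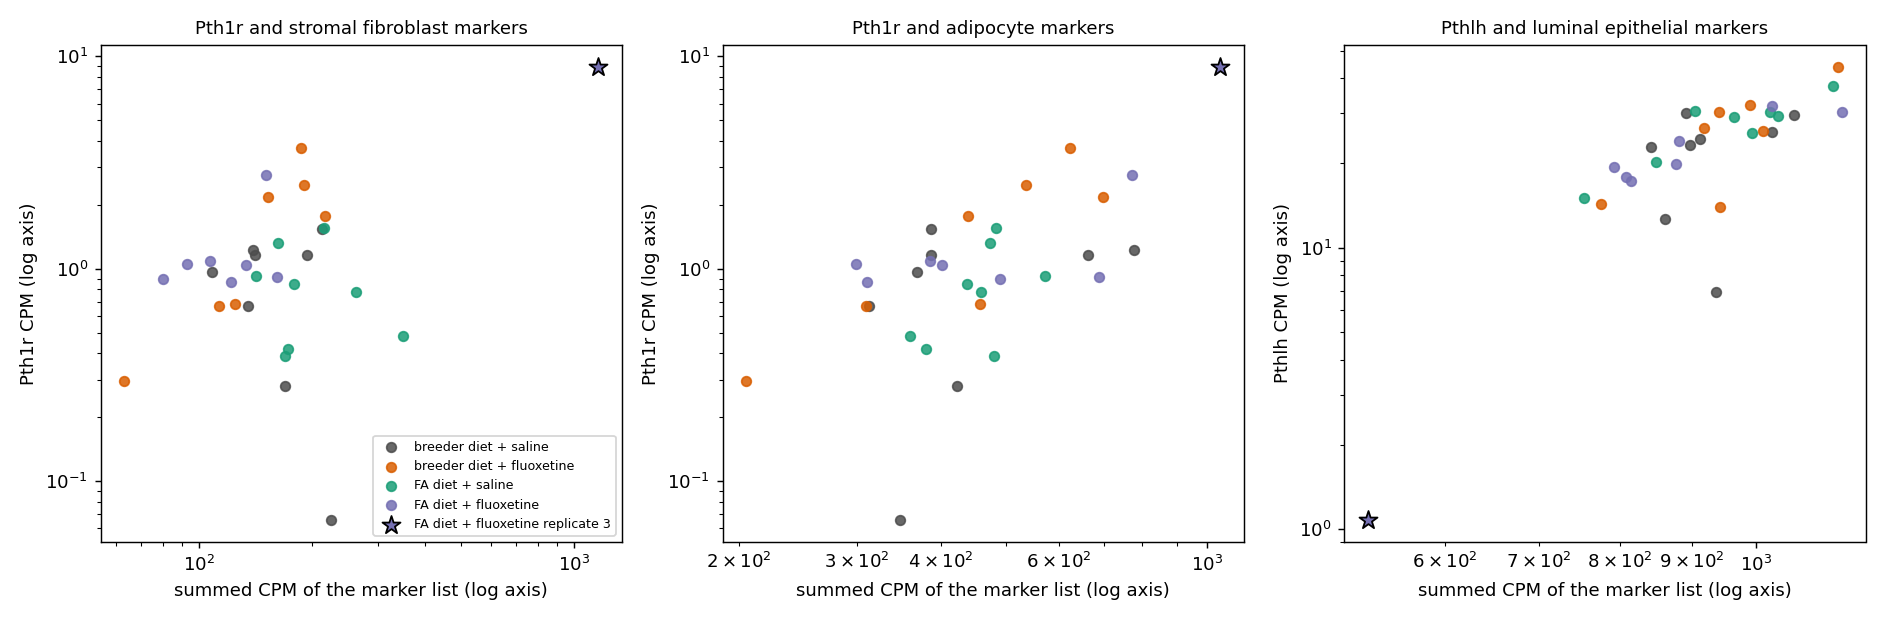
Pth1r against the summed CPM of stromal fibroblast markers (left) and of adipocyte markers (middle), and Pthlh against luminal epithelial markers (right), all log axes, 1 point per dam coloured by group, with replicate 3 of FA diet + fluoxetine as a star. The star stands apart in each panel, and among the other 30 dams r is 0.057, 0.56 and 0.62.

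Of the 45 relations between the 5 genes and 9 marker lists, 8 had an adjusted permutation p of 0.05 or below with all libraries, 3 without replicate 3 of FA diet + fluoxetine and 2 without the 2 farthest libraries. The third without that dam was Casr with skeletal muscle (r = 0.58), which rests on the 8 libraries with counts. Vdr had no relation at that threshold, and its highest r without that dam was 0.46 with pericyte markers (adjusted p = 0.118). Between the members themselves, the r of -0.56 of Pthlh with Pth1r (permutation p = 0.0026, adjusted p = 0.0261 over 10 pairs) was -0.29 (adjusted p = 0.618) without that dam, and no other pair had an adjusted p of 0.05 or below.

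The genes whose log2 CPM ranked most like each member over the 30 other libraries are given as a description. For Pthlh they were Homer2 (Spearman's rho 0.82, and 0.84 over all 31), a scaffold protein, Atmin (0.77), a transcription factor, and Slc5a1 (0.77), a sodium-glucose cotransporter. For Pth1r they were Ppef2 (0.73), a calcium-binding phosphatase, Retn (0.64), the adipokine resistin, and Elovl6 (0.63), a fatty acid elongase. Retn is 1 of the adipocyte markers used above. For Vdr they were Phc3 (0.79), a Polycomb protein, Ano1 (0.75), a calcium-activated chloride channel, and Ggcx (0.72), a vitamin K-dependent carboxylase. These were the highest of 14361 genes ranked for each member, so their values are extremes by choice.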

How the data were processed

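Polyadenylated RNA of 31 mammary glands was sequenced by the authors in paired ends on an Illumina NovaSeq. Reads were checked with FastQC 0.11.7 and trimmed with Trim Galore 0.4.4, mapped to GRCm39 with HISAT2 and counted per gene with HTSeq, per the submitters' processing notes. The deposited values are raw counts per Ensembl gene, without normalization, 1 table per library. The annotation release is not given in the sources used here. Symbols, positions and exon lengths came from GENCODE vM39, which lacks 667 of the genes.

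In edgeR 4.0.16 (R 4.3.3), filterByExpr by group removed 41017 genes and left 14362, and libraries were scaled by TMM. A model of the 4 groups was fitted with robust quasi-likelihood dispersions, and the contrasts for fluoxetine, FA and the interaction were tested with Benjamini-Hochberg adjustment over all 14362 genes and the FDR of 10% that the study used. The SE of a log2 fold change was its size over the square root of F. The common dispersion was 0.169, so spread between dams, not depth, limits abundant genes, and counting error limits Casr and Gli2.

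Relations used log2 CPM with a prior count of 2 and log2 summed CPM of marker lists, with 100000 permutations (Python 3.11.15, scipy 1.17.1) or exact enumeration within groups. The smallest p that the permutations can give is 1e-05. Named were the members, axis genes at an unadjusted p up to 0.05 in any contrast, axis genes below the filter, 19 genes close by role, and the 3 genes most like each member. The members and lists were chosen with earlier results of these data known. Myl3, Trpv6, Smo, Boc, Msx1 and Atp2b1 fall outside this rule and were named after their values were seen.

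Alternatives were the likelihood ratio test, DESeq2 1.42.0, RLE scaling, no filter, leaving out the 20 most abundant genes, a replicate block of the animal number, and leaving out each dam. Fits with a marker sum as a covariate, and the relations of Pth1r to adipocyte and of Pthlh to luminal markers within groups, were chosen after seeing the data. Scripts were tested on simulated data.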

Additional observations from a re-analysis of the deposited data

Results flagged for a closer look

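A sample was looked at again where its gap to the nearest other value of its group, over the range of the group, passed Dixon's 95% critical value. Of 20 such tests (5 genes in 4 groups), 6 passed, and chance alone flags about 1 in 20 groups of normally distributed values. That rate does not apply to Casr and Gli2, whose counts were few and often 0. In both fluoxetine groups the Casr gap was the whole range, because no other dam of the group held a count. Replicate 3 of FA diet + fluoxetine was the lowest of 8 for Pthlh, at 1.08 CPM against 17.3 in the next dam, a gap of 0.528 of the range where 0.526 is critical. The same dam was the highest of 8 for Pth1r, at 8.89 CPM against 2.77. Casr stood out in replicate 5 of breeder diet + fluoxetine (0.432 CPM, 11 counts), replicate 10 of FA diet + saline (0.300 CPM, 5 counts) and replicate 10 of FA diet + fluoxetine (0.306 CPM, 7 counts), in groups whose other dams had 0 or 1 count. Gli2 stood out in replicate 9 of breeder diet + fluoxetine (0.604 CPM, 9 counts), against 0.171 CPM in the next dam.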

How the results depend on the processing

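No member and no axis gene passed an FDR of 10% in the quasi-likelihood fit, the 6 other settings, the 31 fits with 1 dam left out or the 4 with a marker covariate. The fluoxetine log2 fold change of Pth1r was 0.55 to 1.16 over the 6 settings and 0.72 to 1.24 with each dam left out, lowest without replicate 3 of FA diet + fluoxetine. Fold changes of the 3 testable members whose sign turned were within 1 SE of 0 with all dams. With each dam left out, Pthlh ran from -0.15 to 0.0085 for fluoxetine and from -0.11 to 0.040 for FA (positive without replicate 6 of breeder diet + fluoxetine, 0.031, or replicate 3 of FA diet + fluoxetine), and Pth1r from -0.26 to 0.31 for FA and from -0.39 to 0.76 for the interaction. With the stromal covariate, the FA value of Pth1r was -0.19, and -0.20 without replicate 3 of FA diet + fluoxetine, where that of Pthlh was 0.040. With the adipocyte covariate the FA values were -0.13 for Pth1r and 0.0090 for Pthlh. Without that dam as well they were -0.23 and 0.077, with 0.014 for Pthlh under fluoxetine and -0.18 for the interaction of Pth1r. Against the stromal sum, leaving out that dam moved r to 0.11 for Pthlh, 0.057 for Pth1r and 0.19 for Vdr. Causes of these changes were not tested.

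Animal numbers recur between groups, and no source ties them to a litter or day. Deviations of 28 same-numbered pairs correlated at a median of 0.079 (-0.22 to 0.43), 12 of them over 0.1. For 332 other pairs the median was -0.0070 (-0.41 to 0.43), with 74 over 0.1. Same-numbered dams were thus somewhat more alike at the median, with overlapping ranges. Whether the numbers mark pairs was not tested, and the main fit did not pair them. A replicate block called 0 genes for fluoxetine against 3. It gave Pth1r 0.55 (adjusted p = 0.848 by the quasi-likelihood test) and Vdr -0.46 (adjusted p = 0.689) for fluoxetine, and turned the FA values of Pthlh to 0.062 and of Vdr to 0.21. With the block the stromal r was 0.40 for Pth1r (permutation p = 0.125) and -0.75 for Vdr (permutation p = 0.0029). These values include replicate 3 of FA diet + fluoxetine, and none with the block is given without it. Without that dam and without the block the r of Vdr was 0.19. For fluoxetine, the genes past the FDR among all tested numbered 45 by the likelihood ratio test, 69 by DESeq2 and 1 with no filter. With the stromal covariate they numbered 131, and 0 without replicate 3 of FA diet + fluoxetine. The adipocyte covariate called 3 with and without that dam. With 1 dam left out the number ran from 0 to 19.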
